A study of Mus musculus with 6 samples.

Results

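Trophoblast is the outer lineage of the mouse blastocyst, which gives rise to the placenta, and embryonic stem cells normally keep its regulators at low activity. The expression of 9 trophoblast transcription factors (Cdx2, Tead4, Gata3, Gata2, Elf5, Tfap2c, Tfap2a, Ascl2 and Hand1) and of Plet1, a surface glycoprotein of trophoblast progenitors, was followed after knockdown of the coactivator p/CIP. The genes were chosen by symbol, with earlier results of these data known. Counts of them set beside all genes therefore describe these arrays and are no test. Each of the 10 symbols was found, each on 1 row of the array, among 19938 genes in all.

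The cells were E14, a mouse embryonic stem cell line, and their RNA, isolated with a Qiagen RNeasy kit, was measured on 6 arrays. There were 2 arrays of cells given siRNA 1 against p/CIP, 2 of cells given siRNA 2 against p/CIP, and 2 of cells given a pool of non-specific siRNAs as the control. p/CIP is the product of Ncoa3, a p160 coactivator that binds nuclear receptors and brings in histone acetyltransferases, and the study asked which transcripts depend on it. All groups were transfected, and the labels leave unsaid whether the replicates were separate cultures. The p-values therefore cover the spread between these arrays alone, which may be technical.

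In the outer cells of the early embryo, TEAD4 acts with YAP1 to switch on Cdx2 and Gata3. CDX2, ELF5 and TFAP2C, with EOMES, then keep trophoblast stem cells dividing, while ASCL2, HAND1 and GATA2 act in the cells that leave this state for the ectoplacental cone, spongiotrophoblast and giant cells. In embryonic stem cells this programme is held back by factors such as POU5F1 and, at Elf5, by DNA methylation of the promoter.

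The arrays carry log2 values, 1 per probe set, and the level of one gene cannot be set against that of another. Array medians lay between 7.77 and 7.84, and the median spread between arrays of a group was 0.10 (SD). The target Ncoa3 read 10.71 and 10.93 with siRNA 1, 10.71 and 10.92 with siRNA 2, and 12.33 and 12.28 in control cells, and fell by 1.49 on the log2 scale over both siRNAs (limma adjusted p = 0.0287). This call was lost with array codes as a block (adjusted p = 0.157), with all probe sets tested (0.166) and without any 1 siRNA 2 or control array (0.0969 to 0.62), where the change stayed between -1.54 and -1.44. Taken alone, siRNA 1 had an adjusted p of 0.0452, lost under the same alternatives (0.155 to 0.662), and siRNA 2 one of 0.0742, or 0.048 with the replicate number as a block in the fit. Array siRNA 1 replicate 2 stood apart, with an interquartile range of 3.13 against 3.33 to 3.45 on the others and the highest lower quartile, 6.45 against 6.25 to 6.33. Embryonic stem cell markers had a mean level of 11.47 to 11.61 on the knockdown arrays and 11.75 to 11.88 on the control arrays. Fibroblast markers averaged 7.40 to 7.58 with either siRNA and 7.42 to 7.50 in control cells. The lowest value on any array was 2.69, so a value above 0 does not show that a marker was expressed.

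Plet1 and Ascl2 had higher values on every knockdown array than on the control arrays, Plet1 by 0.41 on the log2 scale with each siRNA and Ascl2 by 0.50 with siRNA 1 and 0.11 with siRNA 2. Cdx2, Gata2, Gata3, Hand1 and Ascl2 were higher with siRNA 1 than with siRNA 2. With siRNA 1, Gata2, Gata3, Hand1 and Ascl2 were above both control arrays. With siRNA 2, Cdx2 and Gata2 were below both control arrays. In such bulk RNA, fewer cells of a type and less RNA per cell cannot be told apart. None of these differences passed the test over all genes: limma called 0 of the 10 at an adjusted p under 0.05 in each comparison, and also with the replicate number as a block. The share called over all genes was 0.0702% with both siRNAs together (0.341% with the block), 0.0702% with siRNA 1 (1.21%), 0% with siRNA 2 (0.130%), and 0% when the siRNAs were compared with each other (0.0752%). A count of 0 of 10 is near this background. At an unadjusted p under 0.05 the counts were 2, 3 and 1 of 10 higher and 5 of 10 lower, in the same order of comparisons. The shares of all genes in those directions were 3.86%, 5.78%, 2.25% and 3.54%. Each count moved when some arrays were left out, as given with each comparison.

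The promoters of Plet1, Ascl2 and Cdx2 are shown as examples of 3 patterns in the values. Plet1 was above control by a like amount with each siRNA, and Ascl2 mainly with siRNA 1. Cdx2 had its siRNA means on opposite sides of the control mean. None of these differences was called, and not every gene followed such a pattern, as Tfap2c was below control with each siRNA. Each promoter is the 250 bases before the gene's start, 5′ to 3′ on the gene's strand, from RefSeq on build GRCm38.p6. They are chr9:50494275-50494524 (plus strand), chr7:142969265-142969514 (minus strand) and chr5:147307250-147307499 (minus strand). Capitals mark matches, on either strand, to the nuclear receptor half-site AGGTCA, the GATA motif AGATAA, the TEAD motif GGAATG, the AP-2 motif GCCNNNGGC or the E-box CANNTG.
Plet1: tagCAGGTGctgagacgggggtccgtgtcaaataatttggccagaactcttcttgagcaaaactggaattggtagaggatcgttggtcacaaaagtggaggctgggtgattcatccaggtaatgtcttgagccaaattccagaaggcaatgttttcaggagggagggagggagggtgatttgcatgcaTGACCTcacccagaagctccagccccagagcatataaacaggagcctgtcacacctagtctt
Ascl2: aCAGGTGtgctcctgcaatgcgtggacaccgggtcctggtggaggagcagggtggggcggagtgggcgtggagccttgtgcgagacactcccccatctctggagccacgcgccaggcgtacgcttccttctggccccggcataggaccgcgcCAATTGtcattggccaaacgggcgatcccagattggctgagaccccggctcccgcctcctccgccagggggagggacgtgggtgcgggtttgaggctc
Cdx2: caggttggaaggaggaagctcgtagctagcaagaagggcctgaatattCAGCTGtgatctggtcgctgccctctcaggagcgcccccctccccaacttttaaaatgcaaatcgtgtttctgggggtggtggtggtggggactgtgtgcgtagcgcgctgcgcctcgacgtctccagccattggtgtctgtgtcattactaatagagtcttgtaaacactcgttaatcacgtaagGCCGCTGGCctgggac
Plet1 holds 1 half-site, near the start and read on the opposite strand, and 1 E-box. Such a half-site is found in 14.0% of 32851 RefSeq promoters of that length. Ascl2 holds 2 E-boxes, a motif of 66.2% of promoters. Cdx2 holds 1 E-box and 1 AP-2 motif, and the AP-2 motif is in 13.7% of promoters. The CpG count was 3 for Plet1, 19 for Ascl2 and 13 for Cdx2, against a median of 6 over all promoters. Promoters of 7 of the 10 genes were matched, and these matches describe letters, not binding sites.

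Among the genes that start the lineage, Tead4 encodes the DNA-binding partner of YAP1. Tead4 had 9.41 and 9.65 with siRNA 1, 9.27 and 9.57 with siRNA 2, and 9.39 and 9.43 in control cells. The groups overlapped, and the spread within each knockdown group was wider than the differences between groups. The change was 0.12 with siRNA 1 (95% interval -0.19 to 0.42) and 0.01 with siRNA 2 (-0.30 to 0.31). Without siRNA 1 replicate 2, the siRNA 1 change was -0.004.

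Cdx2, the caudal-type homeobox factor that specifies trophectoderm, read 8.21 and 8.58 with siRNA 1, 7.86 and 7.99 with siRNA 2, and 8.03 and 8.24 in control cells. Both siRNA 2 arrays were below both controls, while siRNA 1 replicate 1 lay between the controls and replicate 2 above them. The log2 change was 0.26 with siRNA 1 (standard error 0.141, limma adjusted p = 0.474) and -0.22 with siRNA 2 (0.141, adjusted p = 0.999). Without siRNA 1 replicate 2, the siRNA 1 change was 0.07. Over both siRNAs together it was 0.02 (95% interval -0.27 to 0.31).

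Gata3, a zinc finger factor that acts beside Cdx2 downstream of Tead4, read 8.95 and 8.98 with siRNA 1, 8.44 and 8.83 with siRNA 2, and 8.75 and 8.73 in control cells. Both siRNA 1 arrays were above both controls. The siRNA 2 arrays lay on either side of them, with replicate 1 well below. The change was 0.23 with siRNA 1 (standard error 0.129, limma adjusted p = 0.484) and -0.11 with siRNA 2 (0.129, adjusted p = 0.999). Without siRNA 1 replicate 2 the siRNA 1 change was 0.212, and without siRNA 2 replicate 1 the siRNA 2 change was 0.086.

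**Figure D1:**
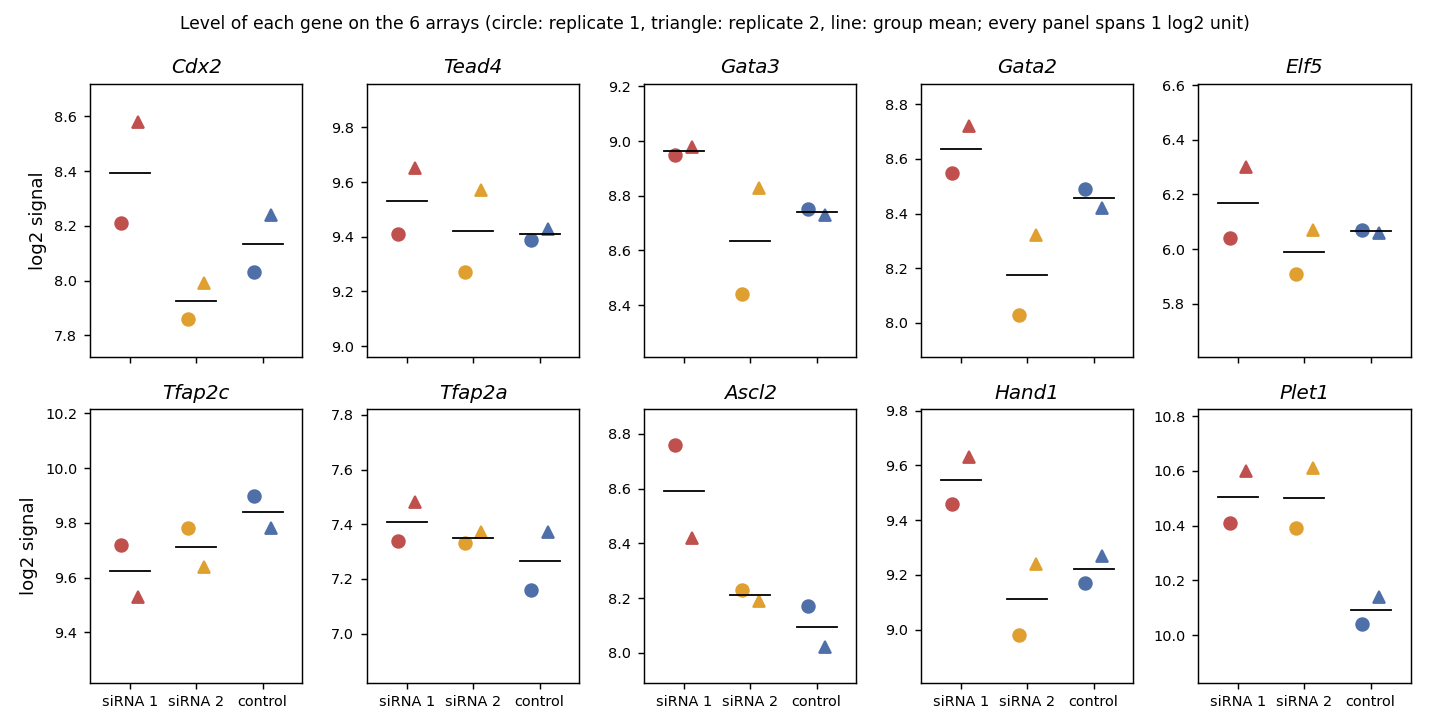
Log2 signal of the 10 genes (vertical axis, each panel spanning 1 log2 unit) on the 2 arrays of siRNA 1, siRNA 2 and control (left to right); circles are replicate 1, triangles replicate 2 and lines group means. Plet1 lies between 10.39 and 10.61 on the 4 knockdown arrays, above both controls, while Gata2 is above control with siRNA 1 and below it with siRNA 2.

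Among the factors that maintain trophoblast stem cells, Elf5, an ETS factor, read 6.04 and 6.30 with siRNA 1, 5.91 and 6.07 with siRNA 2, and 6.07 and 6.06 in control cells. Apart from siRNA 1 replicate 2, the highest, and siRNA 2 replicate 1, the lowest, the arrays lay close together. Over both siRNAs the change was 0.01 (95% interval -0.21 to 0.24), and it turned to -0.04 with quantile normalization or cyclic loess and to -0.051 without siRNA 1 replicate 2.

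Tfap2c, which encodes AP-2 gamma and is also active in embryonic stem cells and germ cells, had a mean below control with each siRNA. It read 9.72 and 9.53 with siRNA 1, 9.78 and 9.64 with siRNA 2, and 9.90 and 9.78 in control cells. The siRNA 1 arrays were below both controls, and siRNA 2 replicate 1 was level with the lower control. The change over both siRNAs was -0.17 (standard error 0.0889, limma adjusted p = 0.636, and 0.211 with the replicate block), and -0.124 without siRNA 1 replicate 2. Its relative Tfap2a, which encodes AP-2 alpha and also marks neural crest and surface ectoderm, ran the other way. Tfap2a read 7.34 and 7.48 with siRNA 1, 7.33 and 7.37 with siRNA 2, and 7.16 and 7.37 in control cells, where only control replicate 1 stood below the rest. Its change over both siRNAs was 0.12 (standard error 0.0891), and 0.01 without control replicate 1.

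Among the factors of trophoblast differentiation, Gata2, which with Gata3 activates placental lactogen genes in giant cells, read 8.55 and 8.72 with siRNA 1, 8.03 and 8.32 with siRNA 2, and 8.49 and 8.42 in control cells. The groups did not overlap: both siRNA 1 arrays were above both controls and both siRNA 2 arrays below them. The change was 0.18 with siRNA 1 (standard error 0.117, limma adjusted p = 0.515) and -0.28 with siRNA 2 (0.117, adjusted p = 0.953). Without siRNA 1 replicate 2 the siRNA 1 change was 0.101, and without siRNA 2 replicate 1 the siRNA 2 change was -0.134. Over both siRNAs together the change was -0.05. Cdx2 and Gata2 were the pair with both siRNA 1 arrays above and both siRNA 2 arrays below the control mean, a pattern of 4.64% of all genes.

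Hand1, the basic helix-loop-helix factor that trophoblast giant cells need, read 9.46 and 9.63 with siRNA 1, 8.98 and 9.24 with siRNA 2, and 9.17 and 9.27 in control cells. The siRNA 1 arrays were above both controls, and siRNA 2 replicate 1 was the lowest of all. The change with siRNA 1 was 0.33 (standard error 0.115, limma adjusted p = 0.359, and 0.0826 with the replicate block), and 0.24 without siRNA 1 replicate 2. With siRNA 2 it was -0.11 (0.115, adjusted p = 0.999).

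Ascl2, an imprinted basic helix-loop-helix gene needed for spongiotrophoblast, read 8.76 and 8.42 with siRNA 1, 8.23 and 8.19 with siRNA 2, and 8.17 and 8.02 in control cells. No knockdown array overlapped a control array, but the siRNA 2 arrays lay just above the higher control. Unlike most of the other genes it was highest on siRNA 1 replicate 1. The change was 0.50 with siRNA 1 (1.41-fold, standard error 0.126, limma adjusted p = 0.24, and 0.0666 with the replicate block) and became 0.67 when siRNA 1 replicate 2 was dropped and 0.323 when replicate 1 was. With siRNA 2 it was 0.11 (standard error 0.126, adjusted p = 0.999), and 0.184 without control replicate 1 or 0.036 without control replicate 2, and over both siRNAs 0.30 (0.109, adjusted p = 0.511).

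Plet1, which marks trophoblast progenitors, read 10.41 and 10.60 with siRNA 1, 10.39 and 10.61 with siRNA 2, and 10.04 and 10.14 in control cells. All 4 knockdown arrays were above both controls, and the siRNAs gave nearly the same pair of values. Over both siRNAs the change was 0.41, a 1.33-fold difference (95% interval 0.18 to 0.64, standard error 0.0968, limma adjusted p = 0.277, and 0.0632 with the replicate block). It was 0.41 with each siRNA (standard error 0.112; adjusted p = 0.267 with siRNA 1 and 0.608 with siRNA 2). With any 1 array left out the pooled change stayed between 0.36 and 0.47, with an adjusted p from 0.0994 to 1.0. With siRNA 1 the change was 0.315 without replicate 2.

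Taking both siRNAs against control, 8 of the 10 genes had a mean above the control mean, against 52.3% of all genes. The median change of the 10 was 0.06 against 0.01 over all genes. In this and later counts, a gene above or below control is one whose mean was, whether or not its arrays overlapped. The arrays did not overlap for 2 genes, Plet1 and Ascl2, both higher, where 8.83% of all genes were higher without overlap. Plet1 and Ascl2 were also those with an unadjusted p under 0.05, against 3.86% of all genes that were higher at that p. Plet1 alone was left without siRNA 2 replicate 1, siRNA 2 replicate 2 or control replicate 2. Without siRNA 2 replicate 2, the median was -0.013 and 4 of 10 genes were above control.

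For siRNA 1 against control, 9 of 10 genes were above control, against 55.5% of all genes, with a median of 0.21 against 0.02 over all genes. Gata2, Gata3, Hand1, Ascl2 and Plet1 were higher without overlap, 5 of 10, against 22.9% of all genes, and Tfap2c was lower without overlap, 1 of 10, against 20.5%. Hand1, Ascl2 and Plet1 had an unadjusted p under 0.05, against 5.78% of all genes that were higher at that p, and this count of 3 was 1 without control replicate 1, and 5 without siRNA 1 replicate 1 or with the replicate block. Of those 5, Tfap2c was lower and the others higher. Without siRNA 1 replicate 2, the array with the narrowest range, the median was 0.087 and 7 of 10 genes were above control. With quantile normalization the median was 0.251. The part of the array's range in these medians was not tested.

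For siRNA 2 against control, 6 of 10 genes were below control, against 52.8% of all genes, with a median of -0.09 against -0.01 over all genes. Plet1 and Ascl2 were higher without overlap, 2 of 10 against 16.0% of all genes. Cdx2 and Gata2 were lower without overlap, 2 of 10 against 19.8%. Both shares are near the background. Plet1 alone had an unadjusted p under 0.05, against 2.25% of all genes that were higher at that p, and no gene of the 10 did without control replicate 1. The count was 2 with aligned medians, loess, the filter on dim genes, trend with robust moderation, or when either siRNA 1 array or siRNA 2 replicate 2 was dropped. It was 3 with the replicate block (Cdx2, Gata2 and Plet1). Every gene counted in these settings other than Plet1 was lower with siRNA 2, and Plet1 was not counted without siRNA 2 replicate 2. Without siRNA 2 replicate 1 the median was 0.053, with 7 of 10 above control. These values and those of siRNA 1 share the same control arrays.

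**Figure D2:**
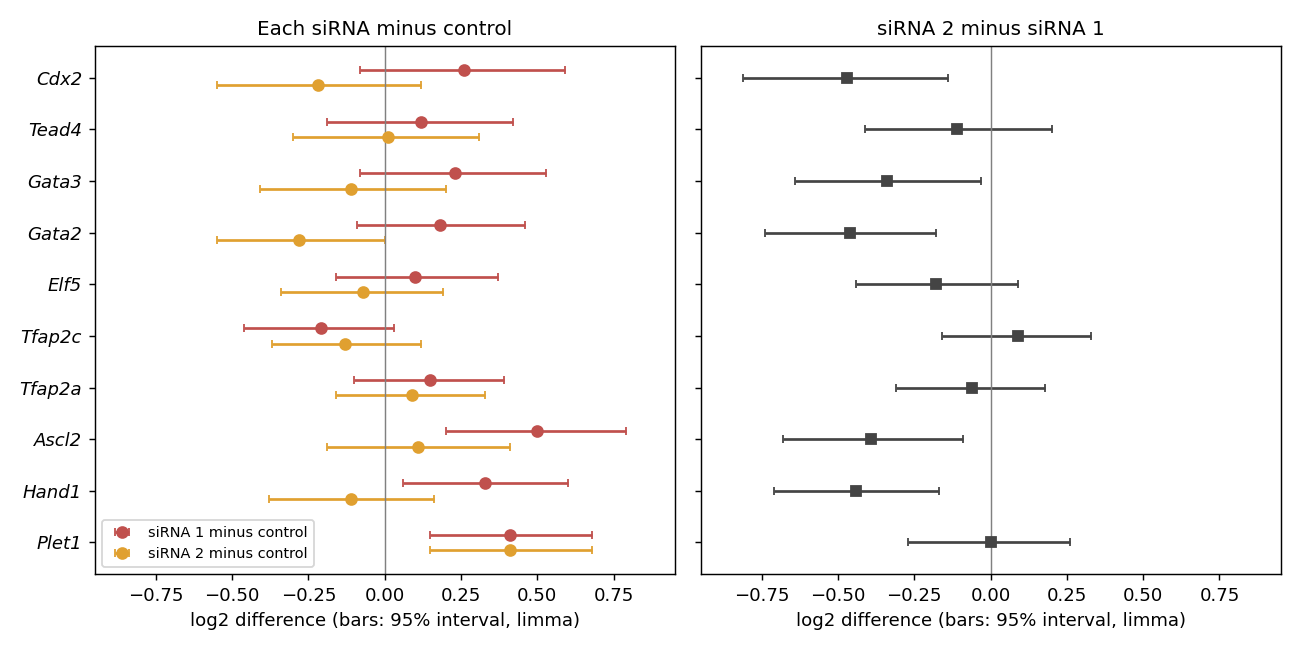
Left, log2 change of each gene with siRNA 1 (red) and siRNA 2 (orange) against control; right, siRNA 2 minus siRNA 1; points are limma estimates and bars 95% intervals. The Plet1 points coincide at 0.41, while Cdx2, Gata3, Gata2, Hand1 and Ascl2 lie below 0 between the siRNAs.

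The direct comparison of siRNA 2 with siRNA 1 uses no control array. In it, 9 of 10 genes were lower with siRNA 2, against 58.1% of all genes, with a median difference of -0.26 against -0.03 over all genes. Cdx2, Gata2, Gata3, Hand1 and Ascl2 were lower without overlap, 5 of 10 against 20.0% of all genes. The same 5 genes had an unadjusted p under 0.05, against 3.54% of all genes that were lower at that p. None passed over all genes by limma, with an adjusted p from 0.554 to 0.718, and the lowest with the replicate block was 0.141.

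Cdx2 differed by -0.47 (95% interval -0.81 to -0.14), Gata2 by -0.46 (-0.74 to -0.18) and Hand1 by -0.44 (-0.71 to -0.17). Ascl2 differed by -0.39 (-0.68 to -0.09) and Gata3 by -0.34 (-0.64 to -0.03). For Plet1 the interval was -0.27 to 0.26, and the same bounds held for Ncoa3 itself. For Tead4, Elf5, Tfap2a and Tfap2c the intervals included 0. Without siRNA 2 replicate 1, on which 6 of the 10 genes had their lowest value against 20.8% of all genes, Gata3 differed by -0.14, the median was -0.119, and 1 gene, Gata2, kept an unadjusted p under 0.05. Without siRNA 1 replicate 2, on which 7 of the 10 were highest against 37.9% of all genes, 3 genes did (Gata2, Hand1 and Ascl2), Cdx2 differed by -0.288, and the median was -0.168. Ascl2 differed by -0.213 when siRNA 1 replicate 1 was dropped.

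**Figure D3:**
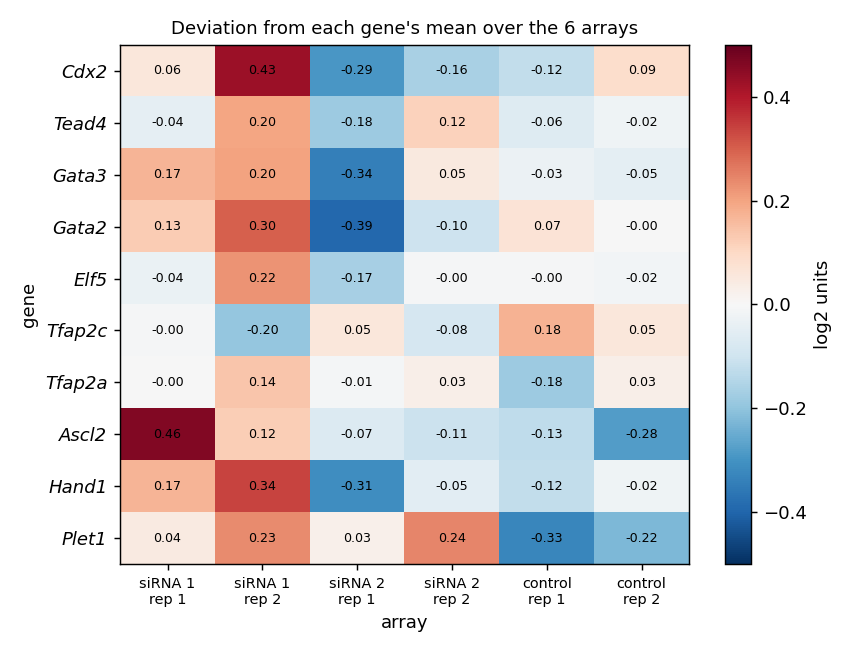
Deviation of each gene (rows) on each array (columns) from its own mean over the 6 arrays, in log2 units; red is above and blue below the mean. Cdx2, Gata3, Gata2, Elf5 and Hand1 are red on siRNA 1 replicate 2 and blue on siRNA 2 replicate 1, while Plet1 is blue on both control arrays.

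Replicate 2 was above replicate 1 for 8 of the 10 genes with siRNA 1, against 58.3% of all genes. The same count was 8 with siRNA 2, against 57.9%, and 5 in control cells, against 47.4%. The median difference between the replicates was 0.17 with siRNA 1, 0.19 with siRNA 2 and 0.01 in control cells. Tfap2c and Ascl2 were lower on replicate 2 in all 3 groups, and Gata3 differed most with siRNA 2, by 0.39.

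Across the 6 arrays, the values of Cdx2 and Hand1 had a Pearson correlation of 0.93, those of Gata3 and Hand1 0.92, and those of Gata2 with Gata3 and with Hand1 0.91 each. These correlations describe 6 arrays in 3 groups and share the same libraries. The genes of most alike pattern were taken from 1200 genes that varied by at least 0.5 and lay above the median gene level, so a high value is part of the choice. Plet1 was most like Serinc5 (0.996) and Ahnak (0.991), Hand1 like Bcl2l11 (0.983) and Fam216a (0.975), and Cdx2 like Chst1 (0.974) and Hmx2 (0.962). Ascl2 was most like Zfp750 (0.964) and Satb1 (0.960), a chromatin organizer that sustains trophoblast stem cells. Gata2 was most like Fam216a (0.950) and Zc3hav1l (0.947), and Gata3 like Hand1 (0.925) and Gata2 (0.914). Serinc5 read 10.50 and 10.66 with siRNA 1, 10.48 and 10.68 with siRNA 2, and 10.05 and 10.21 in control cells, the same order as Plet1. Without siRNA 2 replicate 1, the value for Gata3 and Gata2 was 0.724 and that for Gata2 and Zc3hav1l was 0.837, and without siRNA 1 replicate 1 that for Ascl2 and Satb1 was 0.826.

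Other trophoblast genes were read from lists of general knowledge, which were chosen with earlier results of these data known. Of 15 measured trophoblast stem cell genes, limma called 0 in any comparison of the main fit. Over both siRNAs 10 were below control (median -0.09), where 52.3% of all genes were above it. At an unadjusted p under 0.05 there was 1 higher and 4 lower, against 3.86% of all genes that were higher and 4.86% that were lower. Eomes, the T-box partner of Cdx2 and Elf5, read 9.22 and 8.98 with siRNA 1, 9.09 and 9.05 with siRNA 2, and 8.84 and 8.75 in control cells (change 0.29, limma adjusted p = 0.401). Its knockdown arrays were all above control. The signalling genes Bmp4 (-0.35, adjusted p = 0.199), Spry4 (-0.28, adjusted p = 0.348), and the nuclear receptor Esrrb (-0.50, adjusted p = 0.186, and 0.0386 with the replicate block) had values below control, and Esrrb is also a factor of naive embryonic stem cells.

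Of 17 measured genes of differentiated trophoblast, 0 were called over both siRNAs by limma, 1 was higher at an unadjusted p under 0.05, and 10 were above control (median 0.07). Among all genes 3.86% were higher at that p and 52.3% were above control. Fosl1, an AP-1 subunit of giant cells and a growth factor response gene, read 9.70 and 9.75 with siRNA 1, 9.03 and 9.06 with siRNA 2, and 8.86 and 9.11 in control cells. Only the siRNA 1 arrays stood above the controls. Its difference between siRNA 2 and siRNA 1 was -0.68 (standard error 0.101, limma adjusted p = 0.296). With siRNA 1 its change was 0.74 (adjusted p = 0.088, and 0.029 with the replicate block). Tpbpa, the spongiotrophoblast marker, had 4.06 and 3.99 with siRNA 1, 4.17 and 4.14 with siRNA 2, and 3.76 and 4.07 in control cells. Pcdh12, a protocadherin of the placenta, was at 0.20 and the imprinted Peg10 at -0.12.

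Of 17 measured genes of trophectoderm epithelium, 0 were called by limma, 4 were higher and 1 lower at an unadjusted p under 0.05, and 14 were above control (median 0.17, and 0.046 without siRNA 1 replicate 2, 0.054 without siRNA 2 replicate 2 or 0.063 without control replicate 1). The shares of all genes were 3.86% higher and 4.86% lower at that p, and 52.3% above control. Dsp, the desmosomal plaque protein desmoplakin, read 10.68 and 10.89 with siRNA 1, 10.48 and 10.72 with siRNA 2, and 9.79 and 10.09 in control cells. Its arrays did not overlap, and the change was 0.75 (limma adjusted p = 0.146, and 0.018 with the replicate block). Cldn4, a tight junction claudin, was at 0.26, Sfn at 0.22 and the water channel Aqp3 at -0.45. The median of the list was 0.14 with siRNA 1 and 0.21 with siRNA 2, and the siRNA 1 median was -0.014 without siRNA 1 replicate 2 and -0.007 without control replicate 1. It was 0.266 when siRNA 1 replicate 1 was dropped. The siRNA 2 median became 0.334 when its replicate 1 was dropped and 0.101 when its replicate 2 was.

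Of 16 measured genes of the Hippo pathway and the TEAD family, through which Tead4 is controlled, 0 were called by limma, 3 were higher and 1 lower at an unadjusted p under 0.05, and 11 were above control (median 0.08). Across all genes 3.86% were higher and 4.86% lower at that p, and 52.3% were above control. Amot, which retains YAP1 at junctions, read 8.50 and 8.49 with siRNA 1, 8.47 and 8.60 with siRNA 2, and 8.09 and 8.21 in control cells (change 0.37, limma adjusted p = 0.215). Among the TEAD genes, Tead3 was at 0.37, Tead2 at -0.30 and Tead4 at 0.06. Amotl2, a relative of Amot, was at 0.37. Among 16 relatives of the 10 genes within their families, 0 were called, 2 were higher and 1 lower at an unadjusted p under 0.05, and the median was 0.00, with Gata5 at 0.27 and Tfap2e at 0.13 besides those TEAD genes.

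Of 17 genes known to hold trophoblast genes back in embryonic stem cells, 0 were called by limma, 2 were lower at an unadjusted p under 0.05, and 11 were below control (median -0.02). Among all genes 4.86% were lower at that p, and 52.3% were above control. The histone methyltransferase Setdb1 was at -0.31 (limma adjusted p = 0.292), Nanog at -0.33 (adjusted p = 0.333), and the Polycomb genes Suz12 and Eed at -0.20 and -0.19. Suz12 read 11.74 and 11.53 with siRNA 1, 11.97 and 11.95 with siRNA 2, and 12.06 and 11.92 in control cells, so that the siRNA 1 arrays alone were below both controls.

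**Figure D4:**
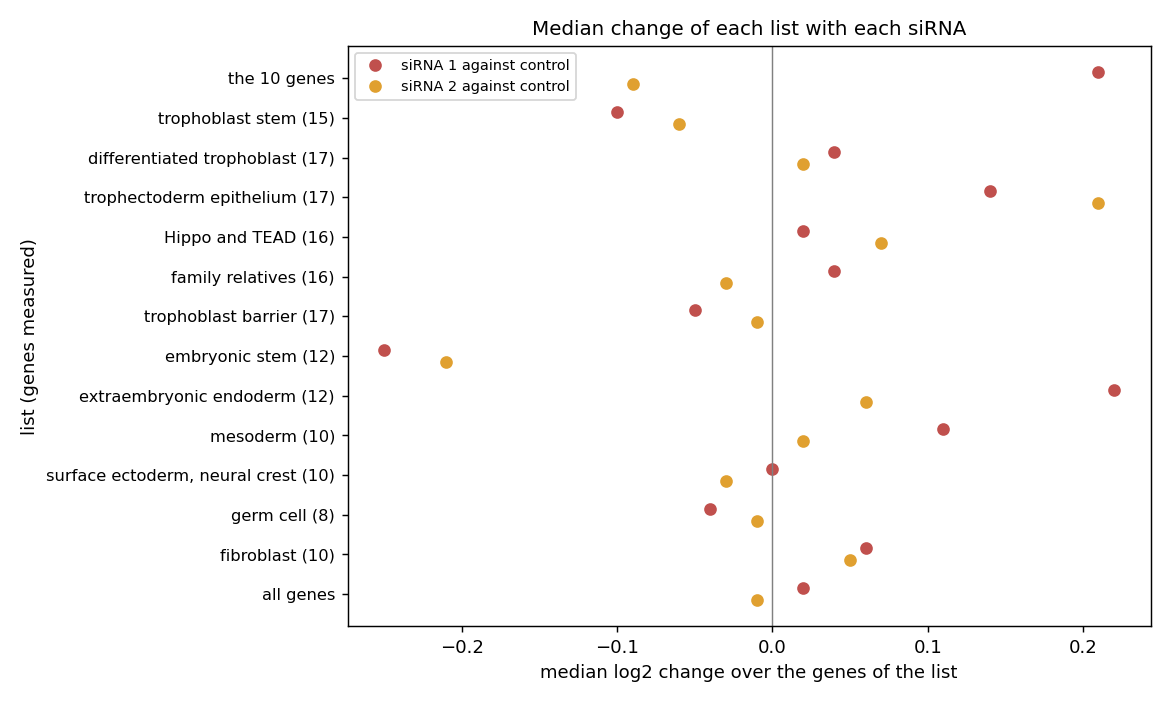
Median log2 change (horizontal axis) over the measured genes of each list (number in parentheses) with siRNA 1 (red) and siRNA 2 (orange) against control. The 10 genes lie at 0.21 with siRNA 1 and -0.09 with siRNA 2, while the embryonic stem list lies at -0.25 (-0.14 without siRNA 1 replicate 2) and -0.21 (-0.311 with only genes above the median level).

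Markers of other lineages were read because several of the 10 genes also serve them: Gata2 and Hand1 in mesoderm, Tfap2a in neural crest and Tfap2c in germ cells. Extraembryonic endoderm markers averaged 8.28 and 8.82 with siRNA 1, 8.25 and 8.57 with siRNA 2, and 8.17 and 8.52 in control cells, with 11 of 12 above control over both siRNAs (median 0.15). Limma called 0 of them, and 0 had an unadjusted p under 0.05. For these lists the shares of all genes were 52.3% above control, and 3.86% higher and 4.86% lower at that p. This list was highest on siRNA 1 replicate 2 and its median was 0.005 without that array, and -0.014 without control replicate 1. It was 0.297 when siRNA 1 replicate 1 was dropped and 0.327 when control replicate 2 was. Mesoderm markers averaged 7.98 and 8.02 with siRNA 1, 7.89 and 7.95 with siRNA 2, and 7.90 and 7.92 in control cells, with 7 of 10 above control (median 0.08, and -0.032 with only genes above the median level), 0 called, and 2 higher and 1 lower at an unadjusted p under 0.05. Sox7, an endoderm factor, was at 0.19, and Twist1, a mesoderm factor, at 0.26. In surface ectoderm and neural crest the median was -0.03, with 0 of 10 called and 1 in each direction at an unadjusted p under 0.05, and the epidermal factor Trp63 was at 0.23. Among fibroblast markers 0 of 10 were called and 1 was higher at an unadjusted p under 0.05, with Thy1 at 0.35 and Postn at 0.07. The part of these cell types in the values of the 10 genes was not tested.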

How the data were processed

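RNA of 6 samples was hybridized to arrays after Cy3 labelling. The deposited values were read as log2 from their range, 2.69 to 14.59; no source states the base. The authors used Partek, per the submitters' processing notes. Its version and how background was corrected and arrays normalized are not stated there. With no detection calls, the number of arrays limits the precision.

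GEO's platform annotation named 21789 of 35556 probe sets with 1 symbol and 1621 with several, and 12146 were not listed. Of the 19938 genes, 999 had several rows and were read from the brightest. RefSeq held all 10 symbols.

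All groups were fitted together in limma 3.58.1 under R 4.3.3 (lmFit, eBayes, two-sided), with 3 residual and 3.84 prior degrees of freedom. Genes were called at a Benjamini-Hochberg adjusted p under 0.05 over all genes, and every adjusted p is limma's. The fit was tested on simulated data, only with changes larger than those of the members. Changes of the members' size were not simulated.

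Members and lists were chosen with earlier results of these data known. From each list the called genes and up to 4 of smallest p over both siRNAs could be named. For members that varied by at least 0.5, the 2 genes of highest correlation were named. The main fit held no block, and equal replicate numbers were taken as pairs only in the alternative with the replicate block. Deviations from group means correlated at 0.464 between siRNA 1 and control and 0.407 between siRNA 2 and control. Between siRNA 2 and siRNA 1 they correlated at 0.461. The pairing comes from the data, not the labels, and is weak with 2 arrays a group. Alternatives were the replicate block, array codes as a block, 3 other normalizations, a filter on dim genes, all probe sets, the mean of rows, trend with robust moderation, and each array left out. Alternatives for lists, correlations, overlap and unadjusted p were chosen after seeing the data.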

Additional observations from a re-analysis of the deposited data

Results flagged for a closer look

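Cdx2 and Gata2 drew attention because both siRNA 1 arrays lay above the control mean and both siRNA 2 arrays below it, a pattern of 4.64% of all genes. Cdx2 differed by -0.47 between siRNA 2 and siRNA 1 (limma adjusted p = 0.633) and Gata2 by -0.46 (adjusted p = 0.554). The differences without siRNA 1 replicate 2 were -0.288 for Cdx2 and -0.376 for Gata2 (adjusted p = 1.0 for each). Neither difference passed over all genes, and the lowest adjusted p with any 1 array left out was 0.0925 for Cdx2 and 0.104 for Gata2. No cause was tested.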

How the results depend on the processing

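Of 592 recomputed changes of the 10 genes, 566 kept their direction and their side of the threshold. The other 26, in 16 of 40 results, turned their sign, and 0 of the 10 genes were called under any of 15 alternatives. Many of the 566 could not turn their sign. Both blocks, the filter on dim genes, all probe sets, the mean of rows and trend with robust moderation left each tested change as it was. An array outside a comparison, when dropped, did not move that comparison's change either. The filter on dim genes kept 8 of the 10 and tested neither Elf5 nor Tfap2a, which lay under the median gene level. With 2 arrays a group, an array left out leaves a lone array, which is assumed to vary like the others. Causes were not tested.

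With the replicate block, limma called 68 genes over both siRNAs, 241 with siRNA 1, 26 with siRNA 2 and 15 between siRNA 2 and siRNA 1, against 14, 14, 0 and 0 without it. The block also brought the called genes to include Dsp and Esrrb, and brought no call to the 10 genes. Over both siRNAs, blocking on array codes or testing all probe sets gave 0, genes above the median level 38, and trend with robust moderation 71. With siRNA 1, the code block and all probe sets gave 0, aligned medians 26, loess 39, the level filter 85, and trend with robust moderation 150. With siRNA 2, aligned medians gave 1, quantile normalization 2, loess 2, the level filter 11, and trend with robust moderation 17. Between the siRNAs, aligned medians gave 1, the level filter 4, and trend with robust moderation 23. With each array left out, counts ran from 0 to 37 over both siRNAs, 0 to 437 with siRNA 1, 0 to 10 with siRNA 2 and 0 to 2 between the siRNAs.

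Over both siRNAs, Elf5 was -0.038 with quantile normalization and -0.04 with loess. Between siRNA 2 and siRNA 1, Tfap2a was 0.003 with loess, and with aligned medians Plet1 was 0.024 and Ncoa3 0.023. With each array left out, changes over both siRNAs ran from -0.084 to 0.124 for Cdx2, -0.051 to 0.079 for Elf5, -0.117 to 0.025 for Gata2, -0.037 to 0.157 for Gata3, -0.013 to 0.137 for Tead4, -0.004 to 0.387 for Sox7 and -0.066 to 0.206 for Postn. With siRNA 1 they ran from -0.027 to 0.234 for Elf5 and -0.004 to 0.238 for Tead4. With siRNA 2 they ran from -0.156 to 0.006 for Elf5, -0.301 to 0.086 for Gata3, -0.24 to 0.019 for Hand1, -0.023 to 0.193 for Tfap2a and -0.143 to 0.158 for Tead4. Between the siRNAs they ran from -0.136 to 0.013 for Tfap2a, -0.007 to 0.18 for Tfap2c, -0.26 to 0.041 for Tead4, -0.112 to 0.107 for Plet1 and -0.114 to 0.108 for Ncoa3.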

Other observations

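Tfap2c is shared with naive stem cells and germ cells, whose other markers were read too. Of 12 embryonic stem cell markers 10 were below control (median -0.23) and 1 was called: Tbx3, a T-box factor, read 9.78 and 9.94 with siRNA 1, 9.75 and 9.78 with siRNA 2, and 10.84 and 10.61 in control cells. It fell by 0.91 on the log2 scale (standard error 0.0926, limma adjusted p = 0.0388). Over all genes 0.0702% were called over both siRNAs. At an unadjusted p under 0.05, 6 of the 12 were lower and 0 higher, against 4.86% of all genes that were lower. With the replicate block 3 of the 12 were called over both siRNAs (Klf4, Esrrb and Tbx3), against 0.341% of all genes. With siRNA 1 there were 4 (those and Zfp42), against 1.21%, and with siRNA 2 there was 1 (Klf4), against 0.130%. All were lower. Of 8 germ cell markers 1 was called: Kit, a receptor tyrosine kinase of germ cells, fell by 0.85 (limma adjusted p = 0.0347). With the block Kit was called with each siRNA too, and Prdm14 was called with siRNA 1. At an unadjusted p under 0.05, 2 of the 8 germ cell markers were lower and 0 higher over both siRNAs. Prdm14, a repressor that germ cells and naive stem cells share, read 8.0 and 7.46 with siRNA 1, 8.05 and 7.89 with siRNA 2, and 8.83 and 8.34 in control cells (change -0.73, adjusted p = 0.316). Neither the Tbx3 call nor the Kit call passed with any 1 control array or any 1 siRNA 2 array left out, with array codes as a block, or when all probe sets were tested.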
